A study of Homo sapiens with 5 samples.

Results

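The genes described are 39 protein-coding genes listed as hosts of microRNAs, that is, as genes whose body holds a microRNA locus. In the microRNA annotation used here, such a locus was matched in 38 of them. None was matched in IGF2, which does not show that IGF2 lacks one. IGF2 is kept as listed and is in none of the locus classes below. They were chosen by gene symbol from a list of known hosts, and the only measured value in the rule is the limit on read counts given next. The members were chosen with earlier results of these data known. All 39 symbols were rows of the count table of 18257 genes, and 37 of them had at least 1 CPM, that is, read counts scaled to library size, in at least 2 of the 5 libraries. COPZ2 and TRPM3 fell below that limit, at a second-highest 0.394 and 0.256 CPM, and SLIT3 was the lowest gene kept, at 1.44 CPM. The data are poly(A) RNA sequencing of HEK293 cells, a human embryonic kidney line, 18 h after transfection. Every library, the mock included, comes from cells labelled HEK293 T-Rex FLAG:DICER1 FLP-IN, named for a FLAG-tagged DICER1. The groups are 1 mock transfection, 2 libraries with DICER1 siRNA and 2 with DROSHA siRNA, each of the pair made with a different siRNA. The labels do not describe the cultures, and the spread within a pair includes any difference between its siRNAs. That spread was wider for DROSHA than for DICER1, at a chi-square per degree of freedom of 7.54 against 2.61 between the counts of the pair. The study asked what Dicer binding does to its target RNAs, and the DROSHA and mock libraries served as its controls. Here the question is whether the host mRNA differs when DROSHA, which cuts the hairpin out of the host transcript, is reduced.

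A microRNA begins as a hairpin within a longer transcript. In the nucleus DROSHA and its partner DGCR8, together called the Microprocessor, cut the hairpin loose, and in the cytoplasm DICER1 trims it to the mature microRNA. Where the hairpin lies in an intron of the host, on the same strand, the intron is spliced out of the mRNA, so that microRNA and mRNA can come from the same transcript. Where it lies in an exon, the cut breaks the mRNA itself, and where it lies on the opposite strand it is not part of the host transcript.

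RefSeq microRNA loci (GRCh38.p14) were placed on GENCODE 29 coding transcripts (GRCh38). The counts were made on hg19, so positions are given only relative to the host gene. Of the 39 hosts, 34 held a locus in an intron on their own strand. LARP7, IARS2 and ACADVL held loci on the opposite strand only. FSTL1 held its locus, MIR198, in an exon of 1 coding transcript and in an intron of none. The 68 loci were 53 in sense introns, 14 antisense and 1 in a sense exon, and the sense introns ranged from 619 nt in EGFL7 to 117001 nt in CLCN5.

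The hairpins of the 3 pantothenate kinase genes are shown because paralogous hosts carry near-copies of the same microRNA at the same place, intron 5 of 6 in PANK1, PANK2 and PANK3. Capitals mark the mature microRNA on the 3′ arm, miR-107 in the first and miR-103a-3p in the other two.
PANK1 MIR107: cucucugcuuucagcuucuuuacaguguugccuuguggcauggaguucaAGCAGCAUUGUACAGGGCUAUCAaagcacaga
PANK2 MIR103A2: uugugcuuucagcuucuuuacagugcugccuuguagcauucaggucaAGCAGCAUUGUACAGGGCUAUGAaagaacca
PANK3 MIR103A1: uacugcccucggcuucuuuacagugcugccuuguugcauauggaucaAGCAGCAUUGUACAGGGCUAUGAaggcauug
Counted from the 5′ end, the mature microRNAs differ only by G22C, with the base of miR-103a-3p first.

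Other paralogous hosts also carry related microRNAs. Mature sequences are given next for hosts described further on, with the seed, bases 2 to 8, in capitals. The first 5 belong to paralogous host pairs or triplets that share a seed within the family, the next 5 to the clusters in MCM7 and SMC4, and the last to FSTL1.
miR-26a-5p (CTDSPL and CTDSP2): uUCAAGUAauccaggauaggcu
miR-26b-5p (CTDSP1): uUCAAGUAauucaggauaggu
miR-148b-3p (COPZ1): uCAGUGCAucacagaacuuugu
miR-152-3p (COPZ2): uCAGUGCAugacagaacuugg
miR-218-5p (SLIT2 and SLIT3): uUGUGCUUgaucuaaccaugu
miR-106b-5p (MCM7): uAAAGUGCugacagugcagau
miR-93-5p (MCM7): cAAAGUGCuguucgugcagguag
miR-25-3p (MCM7): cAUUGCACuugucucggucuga
miR-15b-5p (SMC4): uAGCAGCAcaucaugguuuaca
miR-16-5p (SMC4): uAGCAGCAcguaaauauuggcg
miR-198 (FSTL1): gGUCCAGAggggagauagguuc
Seed AAAGUGC was shared by both MCM7 microRNAs miR-106b-5p and miR-93-5p, and the seed of miR-25-3p, AUUGCAC, also by miR-367-3p of the LARP7 antisense cluster. The microRNAs themselves were not measured, since the libraries hold poly(A) RNA. No source used here states the strand setting of the counting. Coding exons of other genes overlap those of AATK, ACADVL, DALRD3, EVL, IGF2, MCM7, MEST and SMC4 in GENCODE 29, and reads of the pair may not be separable. Pseudogenes named after a host could also share its reads. There are 5 for HNRNPK, 4 each for LARP7 and MEST, and 1 each for IARS2, SKA2 and SMC4.

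Total counts per library ranged from 7620206 to 8736455, of which the 39 hosts took 0.665% in the mock, 0.649% and 0.650% with DICER1 siRNA 1 and 2, and 0.650% and 0.628% with DROSHA siRNA 1 and 2. Each knockdown lowered its target: DROSHA mRNA stood at 191 CPM in the mock, 195 and 193 CPM with DICER1 siRNA 1 and 2, and 41.2 and 41.9 CPM with DROSHA siRNA 1 and 2, and DICER1 mRNA at 243 CPM in the mock, 74.1 and 67.7 CPM with DICER1 siRNA 1 and 2, and 282 and 333 CPM with DROSHA siRNA 1 and 2. CPM here and below are also scaled by TMM, edgeR's factor for library composition. Against the mock the log2 change was -2.20 ± 0.087 (SE) for DROSHA and -1.78 ± 0.12 for DICER1 (edgeR adjusted p = 0.000882 and 0.026). This left 21.7% of the DROSHA mRNA and 29.2% of the DICER1 mRNA of the mock. The proteins and the cutting of hairpins were not measured in these libraries, so how far cutting was reduced at 18 h is not known. Counts of DICER1 would include any reads of the FLAG-tagged DICER1 that the cells are named for. All 7 HEK293 markers looked at were above the limit of 1 CPM in at least 2 libraries, VIM at 419 to 462 CPM and NEFM lowest. Of 10 markers of other cell types, EPCAM, HBB and COL1A1 passed that limit, PTPRC and DCN had no read and PECAM1 was not matched. In the mock EPCAM stood at 88.6 CPM, HBB at 25.6 and COL1A1 at 6.90, each above the HEK293 markers PAX2 at 4.40 and NEFM at 1.31.

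After DROSHA siRNA the median of the host mRNAs stayed close to the mock, and no host was past the test. Single hosts ran from -0.97 to 0.43 on the log2 scale. Of 37 hosts 0 had an adjusted p under 0.05 in edgeR's quasi-likelihood test, where 0.00817% of all 12234 tested genes did. That share is 1 gene, DROSHA itself, so the test called no gene besides the siRNA target. At an unadjusted p under 0.05 there were 2 hosts, SKA2 and WWP2, against 3.69% of all tested genes. DESeq2 and edgeR's likelihood ratio test called 0 hosts as well. The median log2 fold change of the hosts was -0.04, with quartiles of -0.14 and 0.03, and that of all genes was -0.0049. Both DROSHA libraries lay above the mock for 9 hosts, where 31.5% of all tested genes did, and below it for 18 hosts, or 48.6%, where 32.5% of all tested genes did. Taken singly, the median of the hosts was -0.04 with DROSHA siRNA 1 and -0.05 with siRNA 2, at 15 and 13 hosts above the mock.

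The DICER1 libraries, in which DROSHA was not targeted, gave like values. Of 37 hosts 0 were past edgeR's quasi-likelihood test, where 0.00817% of all tested genes were, and 3 had an unadjusted p under 0.05 (COPZ1, CHM and PANK3), against 5.46% of all. The share past the test was again 1 gene, the siRNA target DICER1. DESeq2 and the likelihood ratio test also called 0 hosts. The median log2 fold change was -0.04, with 12 hosts above the mock in both libraries (36.7% of all genes) and 16 below (36.4% of all genes). The mock is shared by both comparisons, and a deviation of that library and a response to either knockdown cannot be told apart. Set against each other with the mock left out of the contrast, the DICER1 libraries had a median host difference of 0.01 from the DROSHA libraries. In that comparison 6 hosts were higher in both DICER1 libraries than in both DROSHA libraries (20.9% of all genes) and 7 were lower (20.0% of all genes). Again 0 hosts passed the quasi-likelihood test, where 0.0163% of all genes did, 3 had an unadjusted p under 0.05 (COPZ1, ZRANB2 and CHM), against 8.34% of all, and DESeq2 and the likelihood ratio test called 0. The genes past the quasi-likelihood test were the 2 siRNA targets, DROSHA and DICER1.

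The precision of single hosts bounds what these libraries can show. In DROSHA against mock, the 95% interval of the difference lay within a 1.5-fold change either way for 29 of the 37 hosts and within 2-fold for 33. The corresponding numbers were 28 and 33 in DICER1 against mock, and 31 and 35 in DICER1 against DROSHA. These intervals come from the fit over all 5 libraries and are not adjusted for the number of hosts. The hosts whose interval reached beyond 2-fold in both comparisons with the mock were FSTL1, with 2 unlike siRNA libraries, and SLIT3, MEST and IGF2, which have 6 to 35 counts a library.

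**Figure D1:**
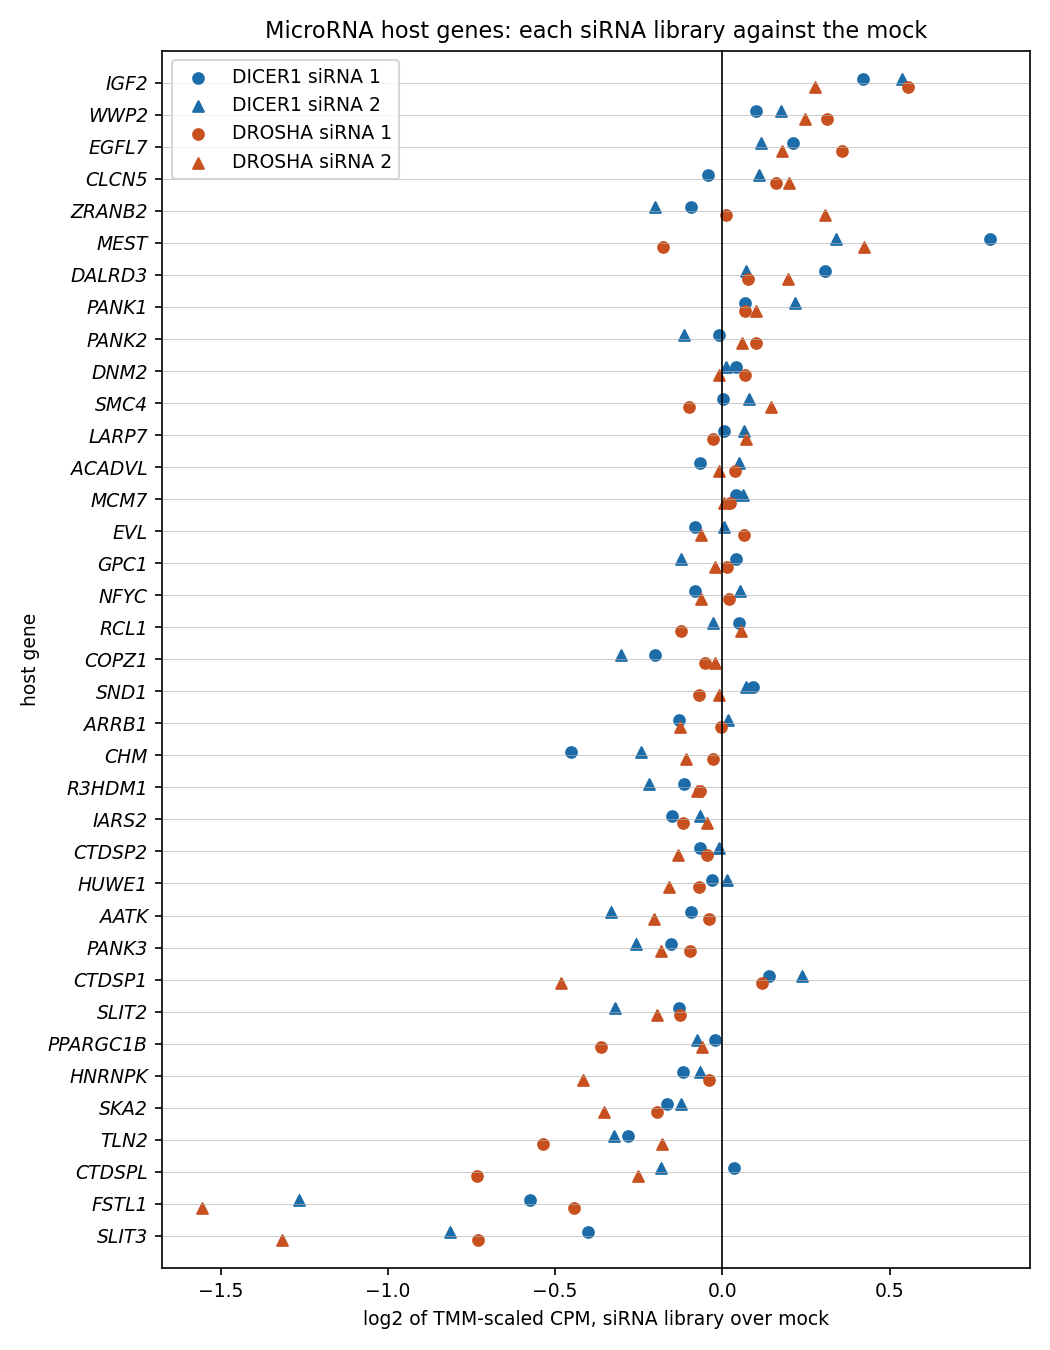
Log2 ratio of TMM-scaled CPM of each siRNA library to the mock (horizontal axis) for the 37 host genes (vertical axis, ordered by their fitted difference in DROSHA against mock). Blue stands for DICER1 and orange for DROSHA siRNA, circles for siRNA 1 and triangles for siRNA 2. Most hosts lie close to the line at 0, while FSTL1 and SLIT3 lie left of it in all 4 siRNA libraries and IGF2 right of it.

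**Figure D2:**
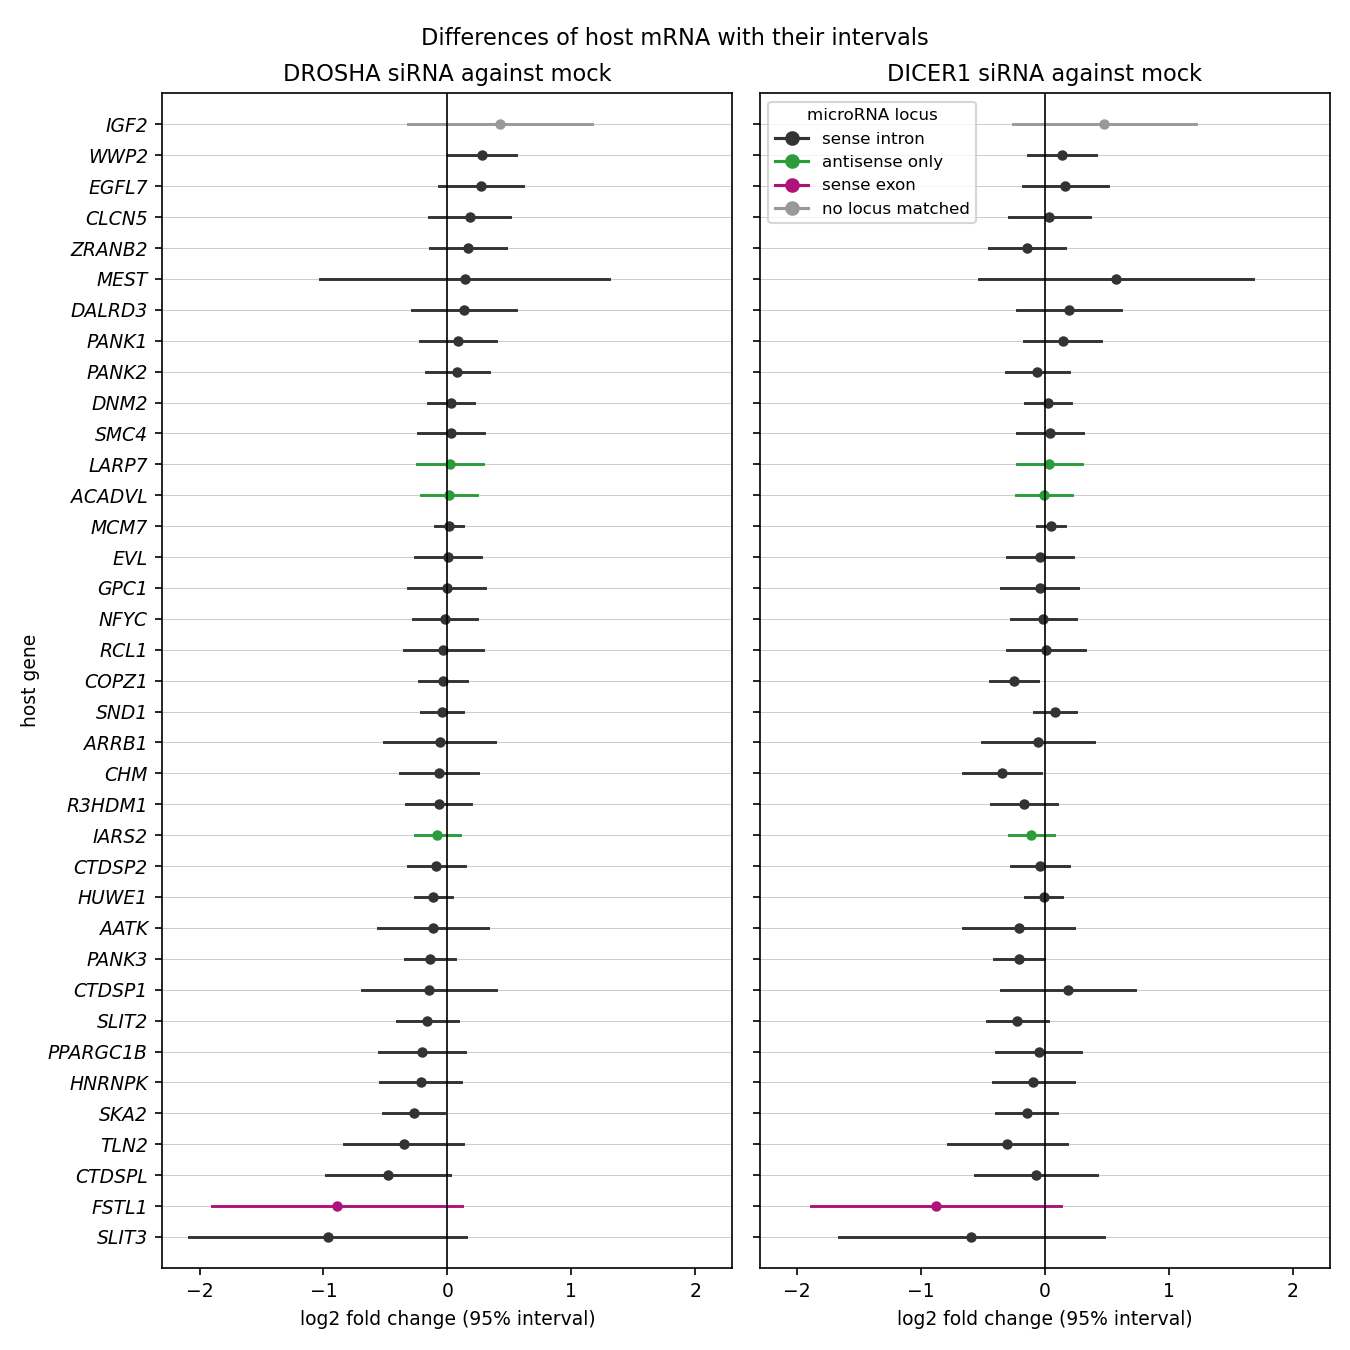
Fitted log2 fold change (points) with 95% interval (bars) of the 37 hosts, each knockdown set against the mock in a panel of its own, coloured by where the microRNA locus lies. The intervals of MCM7 are among the narrowest and those of SLIT3, MEST and FSTL1 among the widest.

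The pantothenate kinases, which catalyse the first step of coenzyme A synthesis and host the miR-103 and miR-107 hairpins, differed in level by more than the libraries did. Per kb of coding-transcript exon in the mock, the level of PANK3 was 29.3 CPM, that of PANK2 12.6 and that of PANK1 4.78. PANK1 stood at 34.2 CPM in the mock, 35.9 and 39.8 CPM with DICER1 siRNA 1 and 2, and 35.9 and 36.7 CPM with DROSHA siRNA 1 and 2. All 4 siRNA libraries lay above the mock, the difference being 0.085 ± 0.13 (log2, SE) with DROSHA and 0.14 ± 0.13 with DICER1 siRNA. PANK2 stood at 70.3 CPM in the mock, 69.8 and 65.0 CPM with DICER1 siRNA 1 and 2, and 75.4 and 73.2 CPM with DROSHA siRNA 1 and 2. Its DROSHA libraries lay above the mock and its DICER1 libraries below it, at 0.08 and -0.062 on the log2 scale. PANK3 stood at 308 CPM in the mock, 277 and 258 CPM with DICER1 siRNA 1 and 2, and 288 and 271 CPM with DROSHA siRNA 1 and 2. For this gene every siRNA library was below the mock, at -0.14 ± 0.084 with DROSHA and -0.20 ± 0.084 with DICER1 siRNA. No pantothenate kinase passed the test over all genes in any of the 3 comparisons (edgeR, adjusted p from 0.691 to 0.981), and the 3 hosts did not go one way.

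The CTD phosphatases, which remove phosphates from the tail of RNA polymerase II and host the miR-26 hairpins, include the host with the third-lowest value after DROSHA siRNA. CTDSPL, with miR-26a-1 in intron 4 of 6, stood at 35.7 CPM in the mock, 36.5 and 31.4 CPM with DICER1 siRNA 1 and 2, and 21.5 and 30.0 CPM with DROSHA siRNA 1 and 2. Both DROSHA libraries lay below the mock and below both DICER1 libraries, with siRNA 1 the lower. Set against the mock, DROSHA siRNA gave -0.48 ± 0.21 (log2, interval -0.98 to 0.022), and DICER1 exceeded DROSHA by 0.40 ± 0.17, with edgeR adjusted p of 0.978 and 0.606. These values were -0.255 and 0.178 without DROSHA siRNA 1, and -0.73 and 0.657 without siRNA 2, none past the test. CTDSP1, with miR-26b in intron 4 of 6, stood at 59.1 CPM in the mock, 65.1 and 69.7 CPM with DICER1 siRNA 1 and 2, and 64.2 and 42.3 CPM with DROSHA siRNA 1 and 2. Here DROSHA siRNA 2 alone was low, so that the DROSHA libraries lay on both sides of the mock, and the difference of DICER1 from DROSHA, 0.34 ± 0.18, depended on the library. It was 0.67 without DROSHA siRNA 1 and 0.0685 without siRNA 2, each from 1 DROSHA library. CTDSP2, with miR-26a-2 in intron 5 of 7, stood at 116 CPM in the mock, 111 and 115 CPM with DICER1 siRNA 1 and 2, and 113 and 106 CPM with DROSHA siRNA 1 and 2, below the mock in every siRNA library, and the log2 fold change was -0.088 ± 0.10 with DROSHA and -0.038 ± 0.10 with DICER1 siRNA. Per kb in the mock, CTDSP2 and CTDSP1 had like levels, 23.8 and 21.3 CPM, and CTDSPL 7.63.

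COPZ1 and COPZ2 are the paralogous zeta subunits of the COPI vesicle coat, and host miR-148b and miR-152. COPZ2 had 2, 3, 3, 5 and 2 counts in the mock, DICER1 siRNA 1 and 2 and DROSHA siRNA 1 and 2, too few to test. COPZ1 stood at 274 CPM in the mock, 238 and 222 CPM with DICER1 siRNA 1 and 2, and 264 and 269.7 CPM with DROSHA siRNA 1 and 2. Both DICER1 libraries were below the mock and both DROSHA libraries, while DROSHA and mock lay close together. On the log2 scale DICER1 against mock gave -0.25 ± 0.081 (interval -0.45 to -0.057), DROSHA against mock -0.037 ± 0.082 and DICER1 against DROSHA -0.21 ± 0.067, with edgeR adjusted p of 0.865, 0.988 and 0.523.

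SLIT2 and SLIT3 encode secreted ligands of ROBO receptors and host the miR-218 hairpins. SLIT2 stood at 230.4 CPM in the mock, 211 and 185 CPM with DICER1 siRNA 1 and 2, and 211 and 201 CPM with DROSHA siRNA 1 and 2. It was below the mock in every siRNA library, at 89.4% of the mock with DROSHA and 85.8% with DICER1 siRNA, neither past the test (log2 -0.16 ± 0.10 and -0.22 ± 0.10). SLIT3 had 16, 11, 9, 10 and 6 counts in the same order of libraries. The value for DROSHA against mock, -0.97 ± 0.47 and the lowest of all hosts, had an interval of -2.09 to 0.15 and an edgeR adjusted p of 0.978.

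**Figure D3:**
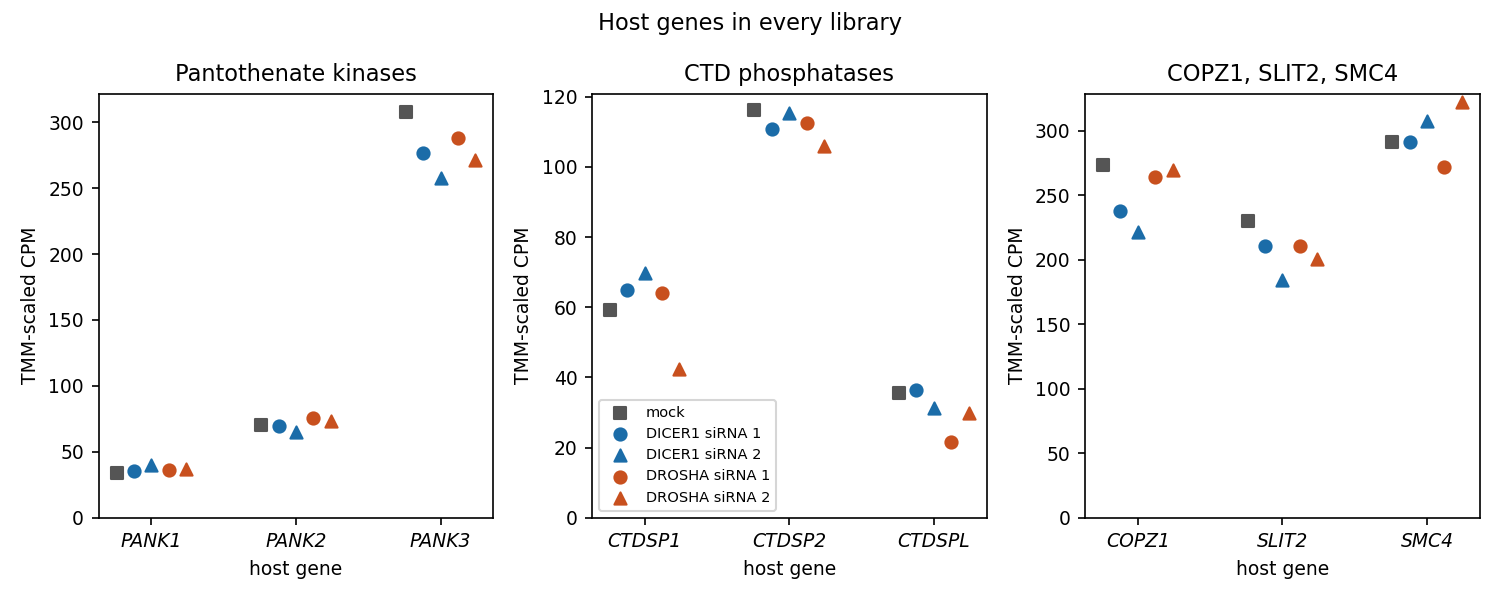
TMM-scaled CPM (vertical axis, from 0) of the pantothenate kinase and CTD phosphatase hosts and of COPZ1, SLIT2 and SMC4 in each of the 5 libraries. Squares are the mock, blue DICER1 and orange DROSHA siRNA. The COPZ1 points of the DICER1 libraries lie below the other 3, and the CTDSP1 point of DROSHA siRNA 2 lies apart from the other DROSHA library.

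The hosts of several microRNA clusters, MCM7, SMC4, HUWE1 and NFYC, had DROSHA values near the mock. MCM7, a subunit of the replicative helicase, holds miR-106b, miR-93 and miR-25 in intron 12 of 13, an intron of only 771 nt. It stood at 1234 CPM in the mock, 1269 and 1289 CPM with DICER1 siRNA 1 and 2, and 1254 and 1237 CPM with DROSHA siRNA 1 and 2. All 4 siRNA libraries lay just above the mock, by 0.013 ± 0.048 on the log2 scale with DROSHA (interval -0.10 to 0.13) and 0.051 ± 0.049 with DICER1 siRNA. Per kb in the mock, MCM7 had the highest level of all hosts, 338 CPM, followed by HNRNPK at 292. SMC4, an ATPase of the condensin complexes, holds miR-15b and miR-16-2 in intron 5 of 23 and stood at 291 CPM in the mock, 292 and 308 CPM with DICER1 siRNA 1 and 2, and 272 and 322 CPM with DROSHA siRNA 1 and 2. The DROSHA libraries lay on both sides of the mock, and the difference was 0.028 ± 0.11. HUWE1, a ubiquitin ligase with let-7f-2 and miR-98 in intron 59 of 82, stood at 843 CPM in the mock, 826 and 851 CPM with DICER1 siRNA 1 and 2, and 803 and 755 CPM with DROSHA siRNA 1 and 2. Both DROSHA libraries were below the mock and both DICER1 libraries, at -0.11 ± 0.063 (log2) against the mock, not past the test. NFYC, a subunit of the CCAAT-binding factor NF-Y that holds miR-30e and miR-30c-1, lay on both sides of the mock in each knockdown (-0.02 with DROSHA and -0.014 with DICER1 siRNA, log2).

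SKA2, a spindle and kinetochore protein that holds miR-301a and miR-454 in its first intron, had the smallest p of the hosts in DROSHA against mock. It stood at 136 CPM in the mock, 121 and 125 CPM with DICER1 siRNA 1 and 2, and 119 and 107 CPM with DROSHA siRNA 1 and 2. Every siRNA library was below the mock and the DROSHA libraries were below the DICER1 libraries. The log2 fold change was -0.27 ± 0.10 with DROSHA (interval -0.52 to -0.026, edgeR adjusted p = 0.978) and -0.14 ± 0.10 with DICER1 siRNA. The difference between the knockdowns, 0.13 ± 0.085, did not pass either (edgeR adjusted p = 0.721).

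On the higher side of DROSHA against mock, WWP2, a ubiquitin ligase with miR-140 in intron 16 of 23, stood at 45.9 CPM in the mock, 49.2 and 51.9 CPM with DICER1 siRNA 1 and 2, and 57.1 and 54.4 CPM with DROSHA siRNA 1 and 2. Both DROSHA libraries lay above the mock and above both DICER1 libraries, at 0.28 ± 0.11 against the mock (log2, interval 0.0075 to 0.55, edgeR adjusted p = 0.978) and -0.14 for DICER1 against DROSHA. EGFL7, a secreted protein best known from endothelial cells that holds miR-126 in intron 7 of 9, stood at 27.2 CPM in the mock, 31.5 and 29.5 CPM with DICER1 siRNA 1 and 2, and 34.9 and 30.9 CPM with DROSHA siRNA 1 and 2. All siRNA libraries were above the mock, by 0.27 ± 0.14 with DROSHA and 0.16 ± 0.14 with DICER1 siRNA. IGF2, a fetal growth factor, had 23, 28, 33, 35 and 26 counts in the mock, DICER1 siRNA 1 and 2 and DROSHA siRNA 1 and 2. Its log2 fold changes of 0.43 ± 0.31 and 0.48 ± 0.31 rest on these low counts. MEST, an imprinted gene with miR-335, had 12, 19, 15, 11 and 15 counts, and its difference of 0.58 ± 0.46 in DICER1 against mock did not pass. CLCN5, an endosomal chloride and proton exchanger, holds the largest cluster, with 8 loci in intron 3 of 14. It stood at 27.1 CPM in the mock, 26.3 and 29.2 CPM with DICER1 siRNA 1 and 2, and 30.3 and 31.1 CPM with DROSHA siRNA 1 and 2, with both DROSHA libraries above the other 3 (log2 0.18 ± 0.14 against the mock). DALRD3, with miR-191 and miR-425 in its first intron, stood at 15.3 CPM in the mock, 18.98 and 16.1 CPM with DICER1 siRNA 1 and 2, and 16.2 and 17.6 CPM with DROSHA siRNA 1 and 2, above the mock in every siRNA library (log2 0.14 with DROSHA and 0.19 with DICER1 siRNA).

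For ZRANB2 and HNRNPK, both RNA-binding proteins, the DROSHA libraries were unlike each other. ZRANB2, a splicing regulator with miR-186 in intron 8 of 9, stood at 253 CPM in the mock, 237 and 219.8 CPM with DICER1 siRNA 1 and 2, and 255 and 312 CPM with DROSHA siRNA 1 and 2. The DICER1 libraries were below the mock and both DROSHA libraries above it, with DROSHA siRNA 1 close to the mock. The difference of DICER1 from DROSHA was -0.31 ± 0.11 on the log2 scale (edgeR adjusted p = 0.533). Leaving out DROSHA siRNA 1 moved it to -0.45 and leaving out siRNA 2 to -0.159. HNRNPK, a binder of C-rich RNA with miR-7-1 in its last intron, stood at 889 CPM in the mock, 819.5 and 849 CPM with DICER1 siRNA 1 and 2, and 865 and 666 CPM with DROSHA siRNA 1 and 2. Only DROSHA siRNA 2 was far below the rest, and HNRNPK has 5 pseudogenes named after it that could share its reads. The difference from the mock with DROSHA siRNA, -0.22 ± 0.14 (edgeR adjusted p = 0.978), became -0.42 without DROSHA siRNA 1, and DICER1 then exceeded DROSHA by 0.325. Without DROSHA siRNA 2 the same values were -0.0379 and -0.0538. For both genes, fits that leave out a DROSHA library rest on 1 DROSHA library, so only the size of the difference is given here.

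CHM, a Rab escort protein with miR-361 in intron 9 of 14, was lower with DICER1 siRNA. It stood at 51.0 CPM in the mock, 37.3 and 43.1 CPM with DICER1 siRNA 1 and 2, and 50.1 and 47.3 CPM with DROSHA siRNA 1 and 2. Both DICER1 libraries lay below the other 3, at -0.34 ± 0.13 against the mock and -0.28 ± 0.11 against DROSHA (log2), with edgeR adjusted p of 0.865 and 0.583. TLN2, a talin that links integrins to actin, stood at 14.2 CPM in the mock, 11.6 and 11.3 CPM with DICER1 siRNA 1 and 2, and 9.76 and 12.5 CPM with DROSHA siRNA 1 and 2, below the mock in all siRNA libraries (log2 -0.35 ± 0.20 with DROSHA and -0.30 ± 0.20 with DICER1 siRNA). R3HDM1, AATK and CTDSP2 were also below the mock in all 4, at log2 values of -0.071, -0.12 and -0.088 with DROSHA and -0.17, -0.21 and -0.038 with DICER1 siRNA. PPARGC1B, a transcriptional coactivator with miR-378a in its first intron, stood at 65.5 CPM in the mock, 64.5 and 62.2 CPM with DICER1 siRNA 1 and 2, and 51.0 and 62.8 CPM with DROSHA siRNA 1 and 2. DROSHA siRNA 1 alone was low, and the difference of -0.21 ± 0.14 did not pass. SND1, a nuclease-fold protein reported in RNA silencing complexes, stood at 342 CPM in the mock, 364 and 359 CPM with DICER1 siRNA 1 and 2, and 325 and 339 CPM with DROSHA siRNA 1 and 2, with DICER1 libraries above and DROSHA libraries below the mock. SND1, PANK2 and ZRANB2 were the 3 of 37 hosts with the pairs on opposite sides of the mock, as were 9.51% of all tested genes. Of the remaining sense-intron hosts, the 5 tested had log2 fold changes from -0.062 to 0.029 in DROSHA against mock and from -0.052 to 0.027 in DICER1 against mock. These are DNM2, EVL, GPC1, RCL1, ARRB1 and TRPM3, the last with 1, 2, 2, 1 and 2 counts and not tested.

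The 3 hosts with antisense loci only serve as a comparison in which, by annotation, the hairpin is not part of the host transcript. LARP7, which binds the 7SK RNA, lies opposite the miR-302 and miR-367 cluster and stood at 61.5 CPM in the mock, 61.6 and 64.4 CPM with DICER1 siRNA 1 and 2, and 60.3 and 64.6 CPM with DROSHA siRNA 1 and 2. Its libraries overlapped the mock, at 0.022 ± 0.11 with DROSHA siRNA. ACADVL, a mitochondrial enzyme of fatty acid oxidation opposite miR-324, was at 0.014 ± 0.10, and IARS2, the mitochondrial isoleucyl-tRNA synthetase opposite miR-194-1 and miR-215, at -0.081 ± 0.076, below the mock in all 4 siRNA libraries. The 32 tested sense-intron hosts had a median of -0.04 in DROSHA against mock, with 8 of 32 higher and 16 of 32 lower in both libraries, against 31.5% and 32.5% of all tested genes. All 90 tested coding genes with antisense loci only had a median of 0.0135 in DROSHA against mock, with 31.1% higher and 30% lower in both libraries. The difference between the classes was not tested.

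The sense-intron hosts were also described by where the locus lies. In DROSHA against mock the median log2 fold change was -0.01 for 14 hosts with a locus within 500 nt of an exon and -0.05 for 18 hosts with all loci farther away. It was -0.05 for 8 hosts with a locus in the first intron and -0.04 for 24 with loci in later introns only. For 10 hosts with at least 2 loci on their own strand the median was -0.0031, and for 22 with 1 such locus it was -0.05. In DICER1 against mock the same 6 medians were 0.03, -0.06, -0.05, -0.03, 0.0091 and -0.05. For scale, the quartiles of all tested genes ran from -0.12 to 0.10 in DROSHA against mock and from -0.11 to 0.12 in DICER1 against mock. A median over several hosts varies less than single genes do, so these quartiles cannot show whether the position of the locus matters. These splits were chosen with the values known and the differences between them were not tested.

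Partners of the host proteins that hold no microRNA locus were read from the same fit. Of 25 tested partners 0 passed edgeR's quasi-likelihood test in any comparison, nor at an unadjusted p under 0.05, and DROSHA siRNA gave them a median of -0.0071. The other MCM subunits lay between -0.16 (MCM2) and 0.046 (MCM5) in DROSHA against mock, which spans MCM7 at 0.013. Condensin subunits lay between -0.13 (NCAPG2) and 0.082 (NCAPD3), around SMC4 at 0.028. Among COPI subunits in DICER1 against mock, COPZ1 was the lowest at -0.25, with COPB2 at -0.16 and COPE highest at 0.16. SKA1 and SKA3, the partners of SKA2, were at 0.092 and 0.056 in DROSHA against mock, where SKA2 was at -0.27. In the same comparison NFYA and NFYB were at -0.26 and -0.073, where their host partner NFYC was at -0.020. The partners of LARP7 lay between -0.24 (CDK9) and 0.074 (MEPCE), around LARP7 at 0.022. The differences between host and partner were not tested.

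**Figure D4:**
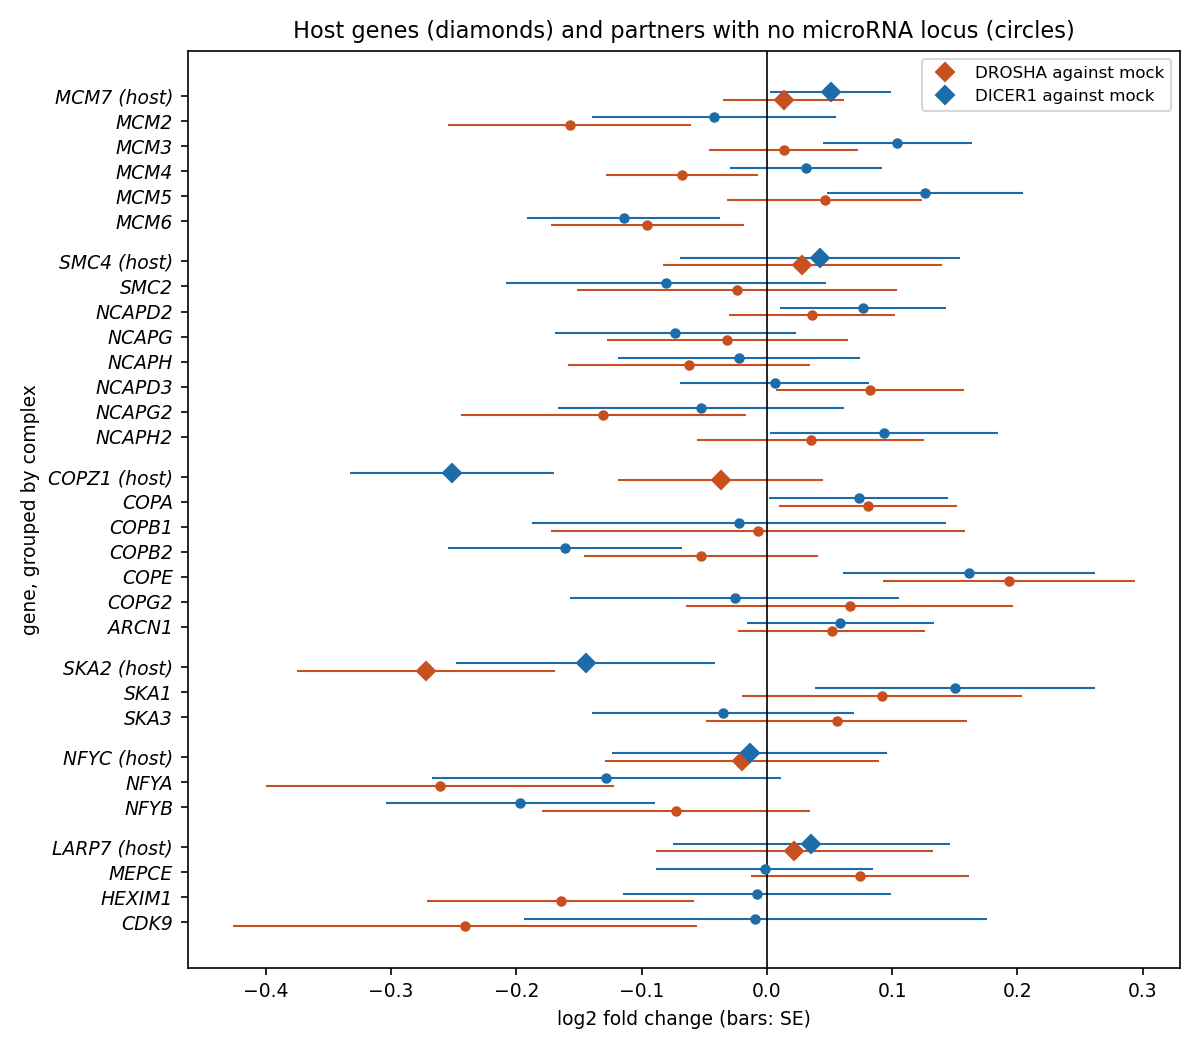
Fitted log2 fold change (horizontal axis, bars are SE) of 6 hosts (diamonds) and their complex partners without a microRNA locus (circles), in DROSHA against mock (orange) and DICER1 against mock (blue). MCM7 and SMC4 lie within the range of their partners in both comparisons, SKA2 lies left of both of its partners in each, and COPZ1 lies left of all of its partners in DICER1 against mock.

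FSTL1, a secreted glycoprotein and the exon host of the set, stood lower than the mock in every siRNA library without passing the test. It stood at 164 CPM in the mock, 110.3 and 68.3 CPM with DICER1 siRNA 1 and 2, and 121 and 55.8 CPM with DROSHA siRNA 1 and 2, from 1381, 843, 568, 1053 and 438 counts. The groups did not overlap the mock, and the siRNA 2 library of each enzyme lay below its siRNA 1 library. The mean was 88.4 ± 46.0 CPM (SD, n = 2) with DROSHA and 89.3 ± 29.7 CPM (SD, n = 2) with DICER1 siRNA. The log2 fold change was -0.89 ± 0.42 (interval -1.90 to 0.12) and -0.88 ± 0.42 (interval -1.89 to 0.13), with edgeR adjusted p of 0.978 and 0.87, and DICER1 against DROSHA gave 0.0093 ± 0.36 (interval -0.86 to 0.87). The value in DROSHA against mock was -1.56 without DROSHA siRNA 1 and -0.439 without siRNA 2, each from 1 DROSHA library.

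FSTL1 is among 102 tested coding genes with a microRNA locus in a sense exon. Their median in DROSHA against mock was -0.0069, with 29 (28.4%) higher and 35 (34.3%) lower in both libraries, near the 31.5% and 32.5% of all tested genes. An unadjusted p under 0.05 (edgeR's quasi-likelihood test) was found for 10 of the 102, against 3.69% of all tested genes. In DICER1 against mock it was found for 6 of the 102, against 5.46% of all. Whether the class differs from all genes was not tested. At the ends of the class, by a rule added after the values were seen, FSTL1, UNC119B and ARNT2 were the 3 lowest and CHPF2, DGCR8 and C7orf43 the 3 highest, counting hosts that averaged 5 CPM or more and did not overlap the mock. The mature microRNAs of 2 of the higher hosts are shown, seeds in capitals, because their hairpins lie in exons of the mRNA that was counted.
miR-671-5p (CHPF2): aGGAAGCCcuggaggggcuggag
miR-3618 (DGCR8): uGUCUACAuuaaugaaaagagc
miR-1306-3p (DGCR8): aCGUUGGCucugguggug

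CHPF2, an enzyme of chondroitin synthesis, stood at 77.4 CPM in the mock, 81.9 and 81.0 CPM with DICER1 siRNA 1 and 2, and 112 and 115 CPM with DROSHA siRNA 1 and 2. Both DROSHA libraries were far above the other 3, which lay close together. The log2 fold change was 0.55 ± 0.10 (interval 0.32 to 0.79) for DROSHA against mock, 0.073 ± 0.10 for DICER1 against mock and -0.48 ± 0.078 for DICER1 against DROSHA. DGCR8, whose mRNA is known to be cut by its own complex, stood at 122 CPM in the mock, 129 and 132.1 CPM with DICER1 siRNA 1 and 2, and 188 and 173 CPM with DROSHA siRNA 1 and 2, with 0.57 ± 0.10, 0.10 ± 0.10 and -0.47 ± 0.078 in the same comparisons. The pattern over libraries was like that of CHPF2. C7orf43, with miR-4658, stood at 29.3 CPM in the mock, 35.2 and 33.0 CPM with DICER1 siRNA 1 and 2, and 39.8 and 52.6 CPM with DROSHA siRNA 1 and 2, with 0.66 ± 0.19 in DROSHA against mock. None of the 3 passed the quasi-likelihood test in edgeR, the adjusted p being 0.978 in DROSHA against mock for each, and 0.337, 0.337 and 0.54 for CHPF2, DGCR8 and C7orf43 in DICER1 against DROSHA. With edgeR's likelihood ratio test CHPF2 and DGCR8 passed in DICER1 against DROSHA (adjusted p = 0.00484 and 0.00767), among 130 genes called. By the same test they did not pass in DROSHA against mock (adjusted p = 0.126 and 0.12). With DESeq2 they did not pass in DICER1 against DROSHA (adjusted p = 0.299 and 0.212). In DROSHA against mock, CHPF2, DGCR8 and C7orf43 were at 0.57, 0.50 and 0.84 without DROSHA siRNA 1. Without siRNA 2 they were at 0.535, 0.629 and 0.448. In DICER1 against DROSHA they were at -0.50, -0.405 and -0.63 without siRNA 1, and at -0.461, -0.529 and -0.228 without siRNA 2. These fits rest on 1 DROSHA library each, so only the size of the difference is given. On the lower side, UNC119B was at 159 CPM in the mock, 148 and 149 CPM with DICER1 siRNA 1 and 2, and 149 and 71.5 CPM with DROSHA siRNA 1 and 2. Only DROSHA siRNA 2 was low for UNC119B. Its log2 fold change of -0.52 became -1.15 without siRNA 1 and -0.092 without siRNA 2. ARNT2 was at 39.1 CPM in the mock, 42.8 and 39.2 CPM with DICER1 siRNA 1 and 2, and 33.5 and 30.0 CPM with DROSHA siRNA 1 and 2.

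**Figure D5:**
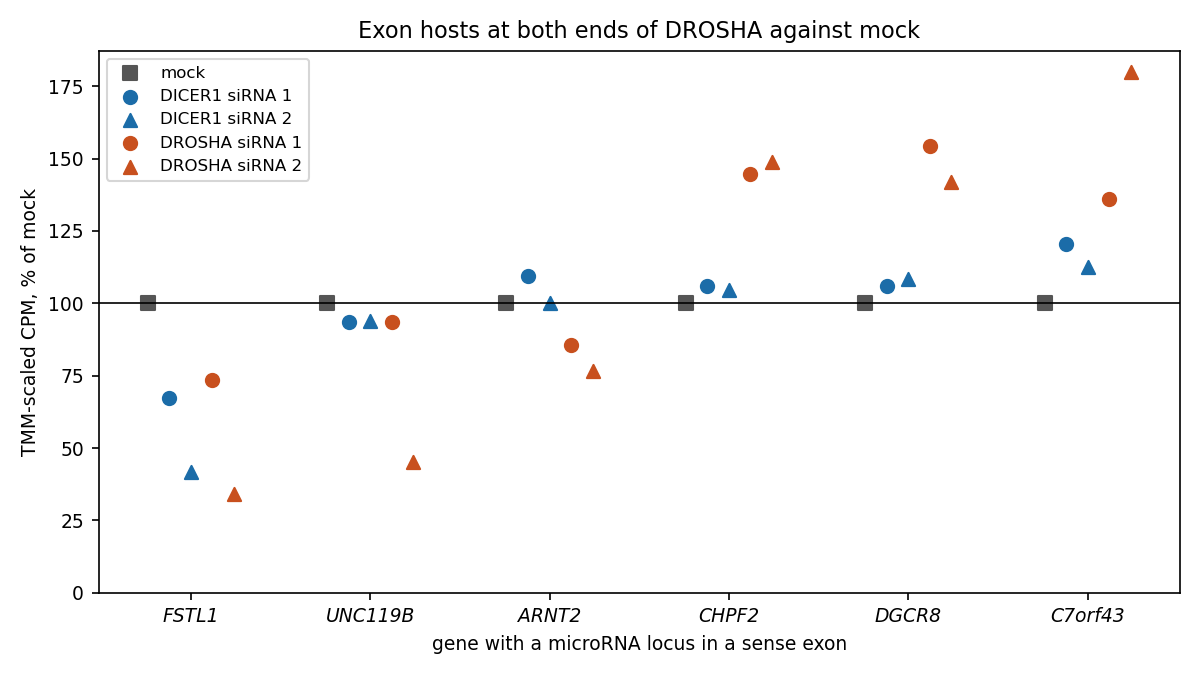
TMM-scaled CPM as a percentage of the mock (vertical axis, from 0) in each library for the 6 exon hosts at the ends of DROSHA against mock. Both DROSHA points of CHPF2 and DGCR8 lie apart from the other libraries, FSTL1 is below the mock in all 4 siRNA libraries, and UNC119B is low in DROSHA siRNA 2 alone.

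Of the 10 microRNA processing genes listed, 1 passed downward in each comparison with the mock, the targeted enzyme. Besides DGCR8, the helicase DDX17, a Microprocessor cofactor, stood at 901 CPM in the mock, 734 and 837 CPM with DICER1 siRNA 1 and 2, and 820.2 and 632 CPM with DROSHA siRNA 1 and 2, below the mock in every siRNA library, and XPO5, which exports the cut hairpin, at 332 CPM in the mock, 344 and 347 CPM with DICER1 siRNA 1 and 2, and 315 and 282 CPM with DROSHA siRNA 1 and 2. Neither passed. No noncoding microRNA host on the list of 15 was matched in the table, so transcripts whose main known product is the hairpin were not analysed here. The 514 other tested sense-intron hosts had a median of 0.0025 in DROSHA against mock. Both libraries were higher for 33.5% and lower for 33.1%, against 31.5% and 32.5% of all tested genes. Of these hosts 0 passed (edgeR), and 22 had an unadjusted p under 0.05, against 3.69% of all. DICER1, a sense-intron host but an siRNA target, was left out of them and was at 0.34 ± 0.12 (log2, edgeR unadjusted p = 0.0271, adjusted p = 0.978). The counts per gene do not separate its host transcript from any FLAG-tagged DICER1 transcript in these cells.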

How the data were processed

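Poly(A) RNA of 5 libraries was sequenced (TruSeq, HiSeq, per the labels). The authors deposited whole-number read counts per gene. The genome hg19 and the tools STAR, HTSeq, edgeR and CASAVA 1.8.2 are named per the submitters' processing notes. No source used here gives the counted features or the strand setting.

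Here edgeR 4.0.16 (R 4.3.3, limma 3.58.1) was run on the counts of all 5 libraries in 1 quasi-likelihood fit with group as the only term. TMM scaling was used, and a gene was kept when 2 or more libraries reached 1 CPM (12234 of 18257 genes). Adjusted p are Benjamini-Hochberg values over all genes tested, called under 0.05. The mock is 1 library, assumed to vary like the siRNA pairs, which leaves 2 residual degrees of freedom among libraries. SE is the log2 fold change over the root of F. Levels are CPM per kb of merged GENCODE 29 exon. Whether groups overlap was counted, not tested. The fit was tested on simulated data.

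Hosts given library by library were, by rule, those with paralogous or same-seed hosts, the 3 highest and 3 lowest without overlap in each comparison, and the 3 smallest p in DROSHA against mock. Some others outside the rule were described after their values were seen, among them HUWE1, HNRNPK, CLCN5, TLN2 and PPARGC1B. The members and lists were chosen with earlier results of these data known. Alternatives were RLE scaling, no filter, a 5 CPM filter, DESeq2 1.42.0, the likelihood ratio test, 2-group fits, leaving out each library and a replicate block.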

Additional observations from a re-analysis of the deposited data

Results flagged for a closer look

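For 3 of the 37 hosts both DROSHA libraries lay on one side of the mock and both DICER1 libraries on the other, as they did for 9.51% of all 12234 tested genes. The difference itself, DICER1 against DROSHA, was -0.142 for PANK2 (adjusted p = 0.691), -0.312 for ZRANB2 (adjusted p = 0.533) and 0.122 for SND1 (adjusted p = 0.621) on the log2 scale, none past edgeR's quasi-likelihood test. Both knockdowns are set against the same mock library.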

How the results depend on the processing

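Values were recomputed for the hosts highest, lowest or smallest in p by the stated rule, HNRNPK and the 6 exon hosts, and not for the other hosts described. Of 305 such values, 290 kept their direction and their side of the threshold and 14 passed only under an alternative. HNRNPK in DICER1 against DROSHA was 0.124, ran from -0.0538 to 0.325 when each library was left out, and was below 0 only without DROSHA siRNA 2. Over all genes, the number past the test in DROSHA against mock was 1, and 3 with the likelihood ratio test. In DICER1 against mock it was 1, against 3 without the filter, 5 with DESeq2, 29 with the likelihood ratio test and 4 with only the 2 groups compared. In DICER1 against DROSHA it was 2, against 12 without the filter, 24 with DESeq2 and 130 with the likelihood ratio test. Leaving out each library in turn gave 1 to 225, 0 to 5 and 1 to 427 genes in the 3 comparisons, the highest each time without DROSHA siRNA 1. Hosts passed only without DROSHA siRNA 1, which leaves 1 DROSHA library. They were FSTL1 and HNRNPK in DROSHA against mock, and CTDSP1, HNRNPK and ZRANB2 in DICER1 against DROSHA. The median log2 fold change of the hosts ran from -0.0486 to -0.0337, from -0.0412 to -0.0128 and from -0.0426 to 0.0266. The DROSHA libraries differed from each other more than the DICER1 libraries did (chi-square per degree of freedom 7.54 against 2.61), and the part of this in the added calls was not tested. A group left with 1 library was assumed to vary like the others.

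The siRNA numbers name different siRNAs, and same-numbered libraries did not deviate together (r = 0.0246 across 12234 genes, which are not independent replicates). With the replicate block, 4 genes and 0 hosts passed in DICER1 against DROSHA. Counts without overlap were not recomputed where a library was left out. A single mock and 2 libraries a knockdown limit the precision, and SLIT3, MEST and IGF2 are limited by their low counts.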
